A study of Mus musculus with 24 samples.

Results

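Ribosome biogenesis and RNA polymerase I genes were followed as a group of 44 genes, taken by name from a list of nucleolar processing factors and polymerase I components. All 44 were measured in p16-3MR livers, among 21755 genes. In wild type livers 23 of the 44 could be read, among 12643 gene labels, because those labels had lost 9 lower-case letters and only a label that matched 1 mouse gene symbol was used. The genes were chosen by their roles, with measured levels in GCV-treated and VEH-treated p16-3MR females already known, so the list counts as selected on those values. The comparison of GCV with VEH in those females is therefore given here as a description. Calls of its members are listed only under the dependence on processing, and nothing is read from them. The comparisons in p16-3MR males and in wild type livers were tested.

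A ribosome begins in the nucleolus, where RNA polymerase I transcribes the ribosomal DNA into one long precursor RNA. Small nucleolar ribonucleoproteins then modify that precursor, the small subunit processome folds and cuts the part that becomes the small subunit RNA, and separate sets of factors mature the small and the large subunit before export to the cytoplasm. Hepatocytes make large amounts of secreted protein, and in liver these genes are known to rise together when cells grow or regenerate.

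Livers were taken from female and male mice that carried the p16-3MR transgene or were wild type. In p16-3MR mice, p16 regulatory sequence drives a reporter that includes a viral thymidine kinase, which turns ganciclovir (GCV) into a toxic product, so that GCV acts on any cell type with an active p16 promoter; the labels name no Cre or further allele. p16-3MR mice were 16 to 18 months old when they started monthly intraperitoneal courses of GCV (150 mg/kg, as the labels give it) or vehicle (VEH, pH11 water), each course lasting 5 consecutive days. The study's methods state another GCV dose, and collection of the sequenced p16-3MR livers many months after treatment began. No length of treatment is given here for these mice. Wild type mice started the same GCV or VEH courses at 6 months of age and were treated for 3 months. Each of the 8 groups of genotype, sex and treatment held 3 livers, 24 in all, with 1 library per liver. The genotypes were processed in different batches and began treatment at different ages, so genotype, age and batch cannot be told apart and the 2 genotypes were never tested against each other.

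Total counts ranged from 5005760 to 7160172 in p16-3MR livers and from 3084517 to 5667904 in wild type livers. The p16-3MR livers are called here by the numbers in their labels. Among them GCV-treated female 33 stood apart: 64.0% of its counts came from mitochondrially encoded genes, against 12.3 to 22.4% in the other 11, it held 13409 detected genes against 16804 to 18659, and 3 counts in it were worth 2.32 counts per 1000000 (CPM) against 0.293 to 0.578 in the others. GCV-treated male 32 and VEH-treated male 24 had the highest scaling factors of edgeR's TMM method (1.80 and 1.64). Liver 33 had the lowest, 0.259 against 0.850 to 1.80 in the other 11, and this low factor raised all of its CPM. Over genes with a mean of at least 10 counts, its median log2 deviation from the gene means was -0.28, against -0.006 to 0.072 in the others. CPM here are on TMM-scaled library sizes. For p16-3MR females the medians of the role groups are given with and without liver 33, as are the single genes whose value turns on it most. In bulk liver, fewer cells of a type and less RNA per cell cannot be told apart.

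Promoter sequence was in the RefSeq table (GRCm38.p6) for 39 of the 44 genes, from 250 bases before to 50 bases after the start site. The windows of 3 genes from different role groups are shown, each with GCV-treated females above all other p16-3MR livers, and because the E-box CACGTG, the palindromic 6-base motif that MYC and other basic helix-loop-helix factors can bind, occurs in the first pair. Capitals mark CACGTG. Rrn3 is shown on the plus strand at chr16:13780449-13780748, Wdr43 on the plus strand at chr17:71615965-71616264, and Nop58 on the plus strand at chr1:59684756-59685055.
Rrn3: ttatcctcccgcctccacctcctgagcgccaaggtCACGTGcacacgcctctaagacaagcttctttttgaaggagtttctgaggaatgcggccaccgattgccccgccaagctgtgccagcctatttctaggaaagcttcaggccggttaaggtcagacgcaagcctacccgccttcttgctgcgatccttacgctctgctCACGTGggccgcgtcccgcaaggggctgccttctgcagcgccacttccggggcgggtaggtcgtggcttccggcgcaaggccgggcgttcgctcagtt
Wdr43: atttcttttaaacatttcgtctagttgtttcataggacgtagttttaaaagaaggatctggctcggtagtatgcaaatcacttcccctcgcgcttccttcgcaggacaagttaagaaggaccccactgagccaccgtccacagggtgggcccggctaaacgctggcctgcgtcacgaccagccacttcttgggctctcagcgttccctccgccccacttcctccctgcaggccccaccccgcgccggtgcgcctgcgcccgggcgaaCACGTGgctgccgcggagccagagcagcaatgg
Nop58: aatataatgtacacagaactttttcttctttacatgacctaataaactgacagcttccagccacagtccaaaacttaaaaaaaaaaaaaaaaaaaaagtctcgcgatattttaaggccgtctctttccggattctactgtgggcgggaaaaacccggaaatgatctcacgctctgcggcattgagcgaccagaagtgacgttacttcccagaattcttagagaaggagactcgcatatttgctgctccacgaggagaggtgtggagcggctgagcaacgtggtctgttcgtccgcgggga

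The Rrn3 window held CACGTG at 2 places, with the first base 215 and 48 bases before the start site, the Wdr43 window held it once, starting at base 18 after the start, and the Nop58 window did not hold these letters. CACGTG was present in 10 of the 39 genes (25.6%), namely Imp4, Ltv1, Mybbp1a, Nop2, Pes1, Pno1, Rrn3, Tsr1, Utp20 and Wdr43, against 8.09% of all 27025 gene symbols in the table, counted in the same way per gene (7.15% of 32851 windows). CGCGAG, read on both strands, was in 12 of the 39 (30.8%), including Nop58 and Wdr43, against 12.3% of symbols, and TATAAA, read on both strands, was in 2 of the 39 (5.13%) against 15.7%. None of the 3 motifs overlaps another in its letters. The 10 genes with CACGTG had a median log2 fold change of 0.65 for GCV against VEH in p16-3MR females, and the 29 without it had 0.68, so the medians with and without the motif were close; without liver 33 they were 0.36 and 0.45.

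In p16-3MR females, 43 of the 44 genes had a higher fitted level in GCV-treated than in VEH-treated livers, against 46.1% of all genes. The median log2 fold change of the 44 was 0.64, with a range from -0.02 for Dkc1 to 2.49 for Nop56, and the median over all genes was 0.00. In 19 of the 44 genes all 3 GCV-treated livers lay above all 3 VEH-treated livers, a separation seen in 5.91% of all genes and in 8.82% of genes with a mean of at least 10 counts, as all 44 had. In 0 of the 44 did they all lie below, against 7.35 and 9.48%. Over all 21755 genes edgeR's quasi-likelihood test called 0 at an adjusted p under 0.05 (0%), 5.05% had an unadjusted p under 0.05 and were higher and 2.32% were lower, and DESeq2 called 86. This contrast was among those known when the genes were listed, so nothing is read from the members' counts or calls.

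The per-liver level of the whole group is given as a description, since the genes were listed with the female contrast known. For each liver, the deviation of each gene's log2 CPM from its own mean over the 12 livers was taken, and the median over the 44 genes was 0.30, 0.60 and 0.34 in GCV-treated females 31, 33 and 35. It was -0.25, -0.27 and -0.19 in VEH-treated females 27, 28 and 29. In males it was -0.06, -0.03 and 0.03 after GCV and -0.12, -0.08 and -0.06 in the VEH-treated animals. On this median the GCV-treated females lay above every male and the VEH-treated females below every male. Single genes did not all keep this order, and nothing is read from it. The SD between livers of a group, pooled over the groups, was 0.09 on this scale, while the GCV-treated females alone ran from 0.30 to 0.60.

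**Figure D1:**
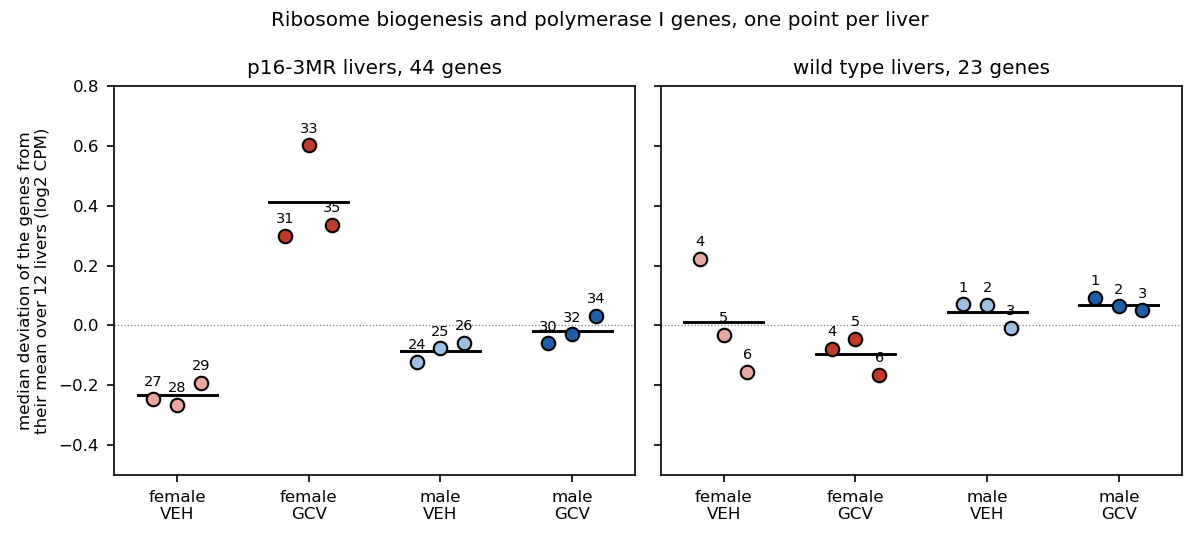
Each point is a liver; the vertical axis is the median over the genes of log2 CPM minus the gene's mean over the 12 livers of that genotype, the horizontal axis the 4 groups, the number the liver's label and the black line the group mean. The 3 GCV-treated p16-3MR females sit between 0.30 and 0.60, above the other 9 p16-3MR livers, while the wild type groups lie between -0.16 and 0.22.

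Liver 33 gave many of the largest values. It was the highest of the 12 p16-3MR livers for 24 of the 44 genes and the lowest for 9. Without it, 41 of the 44 genes were still higher after GCV, the median log2 fold change was 0.43, and both remaining GCV-treated females lay above all VEH-treated females in 25 genes, beside 12.9% of all genes and 17.4% of genes with a mean of at least 10 counts. Leaving it out moved the log2 fold change of 27 of the 44 genes by over 1.5 times: it became smaller or changed sign in 20 and larger in size in 7, among them the negative value of Dkc1. It was then 0.19 in place of 0.88 for Emg1, 0.20 in place of 0.68 for Nop14, 0.20 in place of 0.51 for Tsr1, 0.27 in place of 0.75 for Pes1, 0.43 in place of 1.05 for Mybbp1a, 0.32 in place of 1.103 for Polr1b and 0.80 in place of 2.49 for Nop56. It turned negative for Utp15 (-0.34) and Utp20 (-0.13), and Dkc1 was at -0.26. Among those that became larger, Polr1c went from 0.23 to 0.52 and Rrs1 from 0.15 to 0.47. In 11 of the 44 genes all 3 GCV-treated females lay above all 9 other p16-3MR livers, beside 0.804% of all genes and 1.18% of genes with a mean of at least 10 counts; as these groups include the known contrast, nothing is read from the count. They were Nop58, Fbl, Wdr43, Wdr75, Nop14, Bysl, Wdr12, Gnl3, Nolc1, Mybbp1a and Rrn3.

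**Figure D2:**
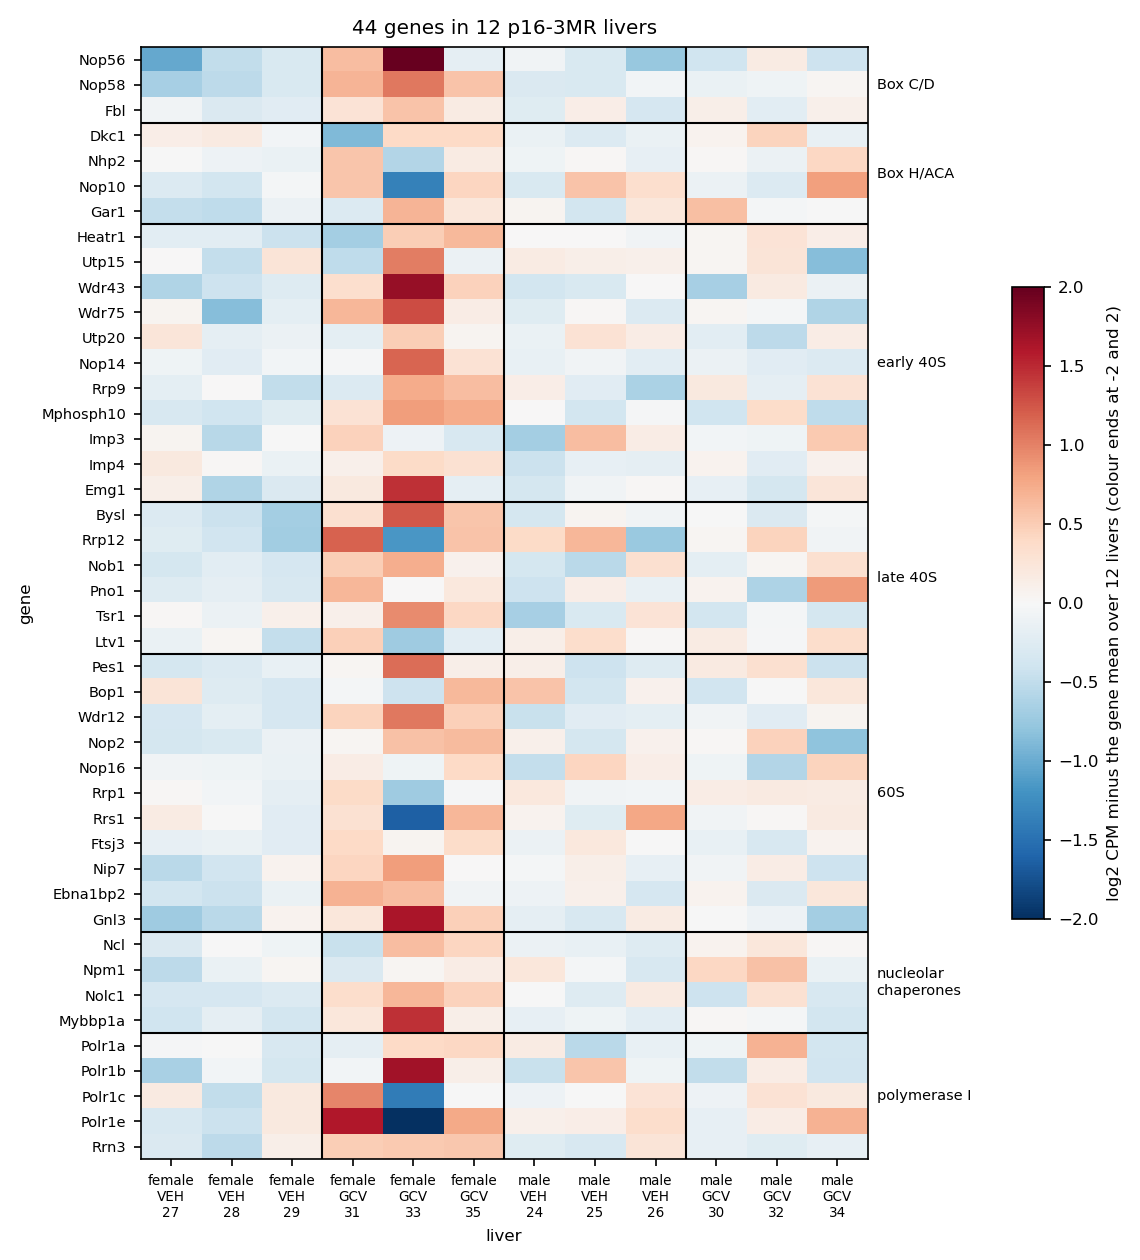
Rows are the 44 genes ordered by role, columns are the 12 p16-3MR livers, and colour is log2 CPM minus the gene's mean over the 12 livers, with the colour scale ending at -2 and 2. Red is most common in the 3 GCV-treated females and blue in the 3 VEH-treated females; in GCV-treated female 33 the strongest reds stand beside strong blues such as Polr1e, which had 0 counts there.

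RNA polymerase I and its initiation factor open the pathway. Rrn3 (TIF-IA), the factor that brings polymerase I to the ribosomal DNA promoter, stood at 15.8, 16.2 and 16.4 CPM in the GCV-treated females and at 9.11, 7.67 and 12.2 CPM in the VEH-treated females. In males it stood at 10.005, 9.37 and 9.99 CPM after GCV and at 9.45, 8.93 and 13.4 CPM after VEH. The GCV-treated females thus exceeded all 9 other livers, the 3 GCV-treated females lay close together, and the log2 fold change was 0.74 in females and -0.12 (SE 0.32) in males.

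The polymerase subunits were less even. Polr1a, the largest catalytic subunit, was at 17.0, 25.5 and 25.8 CPM after GCV and 19.0, 19.2 and 15.5 CPM after VEH in females, so the groups overlapped (log2 fold change 0.34, and 0.20 without liver 33). Polr1b, the second-largest subunit, was at 5.59, 19.3 and 6.37 CPM against 3.62, 5.64 and 4.53 CPM, again overlapping, with liver 33 far above the rest (log2 fold change 1.103). Polr1c, which polymerase I shares with polymerase III, had 3.09 CPM from 4 counts in liver 33 and 17.4 and 8.55 CPM in the other GCV-treated females. Polr1e had 0 counts in liver 33, which allows up to 2.32 CPM, but 7.52 and 4.03 CPM in livers 31 and 35 against 1.59 to 2.64 CPM in the VEH-treated females. Among the 5 genes of this group (median log2 fold change 0.74, or 0.52 without liver 33), Rrn3 alone had GCV-treated and VEH-treated females that did not overlap with all livers, and Polr1e joined it without liver 33.

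The box C/D core, which guides methylation of ribosomal RNA, showed the highest median log2 fold change of the 7 role groups in females, 1.28 (0.80 without liver 33, also the highest), and all 3 of its genes separated the treatments. Nop58 was at 50.3, 64.9 and 46.5 CPM after GCV (53.9 ± 9.72, SD, n = 3) and at 19.6, 21.6 and 25.2 CPM after VEH (22.1 ± 2.84). Males had 28.5, 29.5 and 32.1 CPM after GCV and 25.6, 25.2 and 30.01 CPM after VEH. Each GCV-treated female had more Nop58 than each of the other 9 livers, with a log2 fold change of 1.28 in females, 1.07 without liver 33, and 0.16 (SE 0.28) in males.

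Its partner Nop56 had the largest fold change of the list, but a single liver made most of it. Nop56 was at 39.9, 232 and 22.8 CPM after GCV and at 12.6, 18.2 and 20.8 CPM after VEH, and the value in liver 33 rested on 300 counts. Male livers ranged from 15.2 to 28.9 CPM, a range that held the lowest GCV-treated female. Fbl, the fibrillarin methyltransferase of the same particle, was at 23.1, 28.6 and 21.5 CPM against 18.2, 15.6 and 16.2 CPM, a smaller log2 fold change of 0.54 (0.36 without liver 33) with no overlap.

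The box H/ACA core, which guides conversion of uridine to pseudouridine, showed the lowest median of the 7 groups, 0.29, but 0.37 without liver 33, when the early small subunit factors were lowest, and none of its 4 genes separated the treatments with all livers. Without liver 33, Nop10 and Nhp2 did, both higher after GCV. Dkc1, the pseudouridine synthase, was at 12.1, 30.1 and 29.9 CPM after GCV and at 24.8, 25.8 and 21.9 CPM after VEH, and was the only gene of the 44 with a fitted level below that in VEH, a direction that turned under DESeq2 (0.000517) and with DESeq2's size factors in edgeR (0.017). Nop10, Nhp2 and Gar1, the small proteins of the particle, had log2 fold changes of 0.35, 0.24 and 0.62, and of 0.66, 0.41 and 0.33 without liver 33. Liver 33 was the lowest of the 12 livers for Nop10 (9.27 CPM from 12 counts), against 35.7 and 32.5 CPM in the other GCV-treated females.

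The early small subunit factors were all higher after GCV in females, 11 of 11 (median log2 fold change 0.66), but 9 of 11 without liver 33 (0.21), and 4 of them did not overlap. Wdr43, which links early processing to polymerase I transcription, was at 36.8, 98.1 and 40.3 CPM after GCV against 19.0, 21.8 and 24.4 CPM after VEH, and at 18.2 to 33 CPM in males. Mphosph10, a U3 particle protein, was at 30.1, 44 and 41.4 CPM against 19.6, 18.7 and 20.8 CPM. GCV-treated females exceeded VEH-treated females in both genes without liver 33, but GCV-treated male 32 (31.9 CPM) reached the GCV-treated female range for Mphosph10.

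The other 2 genes of this group without overlap were Wdr75 and Nop14. Wdr75, from the same subcomplex as Wdr43, was at 14.7, 23.2 and 10.2 CPM after GCV and at 9.52, 4.92 and 7.93 CPM after VEH. Nop14 was at 27.6, 63.3 and 34.2 CPM against 26.3, 24 and 26.9 CPM, so that liver 31 cleared the VEH-treated livers by a narrow margin. Heatr1, Utp15, Utp20, Rrp9, Imp3, Imp4 and Emg1 overlapped, with log2 fold changes from 0.13 for Utp20 to 0.88 for Emg1, which was at 49.4 CPM in liver 33 and at 20.2 and 15.6 CPM in the other GCV-treated females. With all livers these genes were higher on average but not in every animal. Without liver 33 Utp15 (-0.34) and Utp20 (-0.13) were lower, and the others ran from 0.11 for Imp4 to 0.43 for Rrp9.

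Among the 6 late small subunit factors the median log2 fold change in females was 0.69 (0.62 without liver 33) and 3 did not overlap. Bysl (bystin), needed for cutting and release of the small subunit precursor, was at 12.1, 23.2 and 14.3 CPM after GCV and at 7.91, 7.09 and 5.92 CPM after VEH. Males had 9.58, 7.81 and 9.41 CPM after GCV and 7.47, 10.0003 and 9.22 CPM after VEH. The GCV-treated females again lay above all 9 other livers (log2 fold change 1.22 in females, 0.01 with SE 0.34 in males), and the male value changed sign in several alternative fits.

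Nob1, the endonuclease that makes the final cut of the small subunit RNA, was at 6.55, 7.72 and 4.86 CPM after GCV against 3.49, 3.91 and 3.52 CPM after VEH. Its partner Pno1 was at 40.3, 25.5 and 29.4 CPM against 21.2, 22.3 and 20.1 CPM. GCV-treated male 34 (45.9 CPM) exceeded all females for Pno1. Tsr1 and Ltv1 overlapped (log2 fold changes 0.51 and 0.13, and 0.20 and 0.29 without liver 33), as did Rrp12, which was at 9.06 and 5.87 CPM in livers 31 and 35 and at 1.54 CPM, from 2 counts, in liver 33.

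The 11 large subunit factors were all higher after GCV in females (median log2 fold change 0.71, and 0.47 without liver 33), and 6 did not overlap. Wdr12, which forms the PeBoW complex with Pes1 and Bop1, was at 16.0, 24.7 and 16.4 CPM after GCV against 9.25, 10.1 and 9.19 CPM after VEH, and at 8.52 to 12.1 CPM in males. Pes1 was at 19.5, 41.7 and 20.6 CPM against 14.9, 15.6 and 17.1 CPM. Bop1 overlapped, at 8.10, 6.18 and 13.2 CPM against 10.1, 6.95 and 6.54 CPM, so the complex's 3 members did not share one pattern.

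Gnl3 (nucleostemin), a GTPase of the large subunit path, was at 25.6, 68.0 and 30.5 CPM after GCV and at 13.1, 14.9 and 22.9 CPM after VEH. Ebna1bp2 was at 48.2, 45.6 and 28.2 CPM against 22.8, 22.0 and 26.9 CPM. Nop2, a methyltransferase for ribosomal RNA, and Ftsj3 also did not overlap, with log2 fold changes of 0.71 and 0.46. For Ftsj3 all 3 GCV-treated females (63.4, 49.4 and 62.1 CPM) lay above the VEH-treated females (40.9 to 43.4 CPM) but not above the males (38.4 to 55.7 CPM). Nip7, Nop16, Rrs1 and Rrp1 overlapped, with log2 fold changes from 0.02 for Rrp1 to 0.73 for Nip7 (0.20 and 0.45 without liver 33).

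Of the nucleolar chaperones and multifunctional proteins, Nolc1 and Mybbp1a did not overlap in females, and the median log2 fold change of the 4 genes was 0.60, or 0.27 without liver 33. Nolc1 (Nopp140), a chaperone of nucleolar particles, was at 35.9, 44.8 and 38.7 CPM after GCV against 22.3, 22.1 and 23.2 CPM after VEH. Mybbp1a, which acts in ribosomal DNA transcription and processing, was at 41.8, 98.9 and 38.6 CPM against 26.9, 31.4 and 27.4 CPM. Nucleolin (Ncl) and nucleophosmin (Npm1), abundant proteins of the nucleolus, overlapped: Ncl was at 248, 518 and 454 CPM against 277, 337 and 320 CPM, and Npm1 at 122, 154 and 167 CPM against 104, 136 and 154 CPM. Their log2 fold changes were 0.38 and 0.17, and 0.11 and 0.07 without liver 33.

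**Figure D3:**
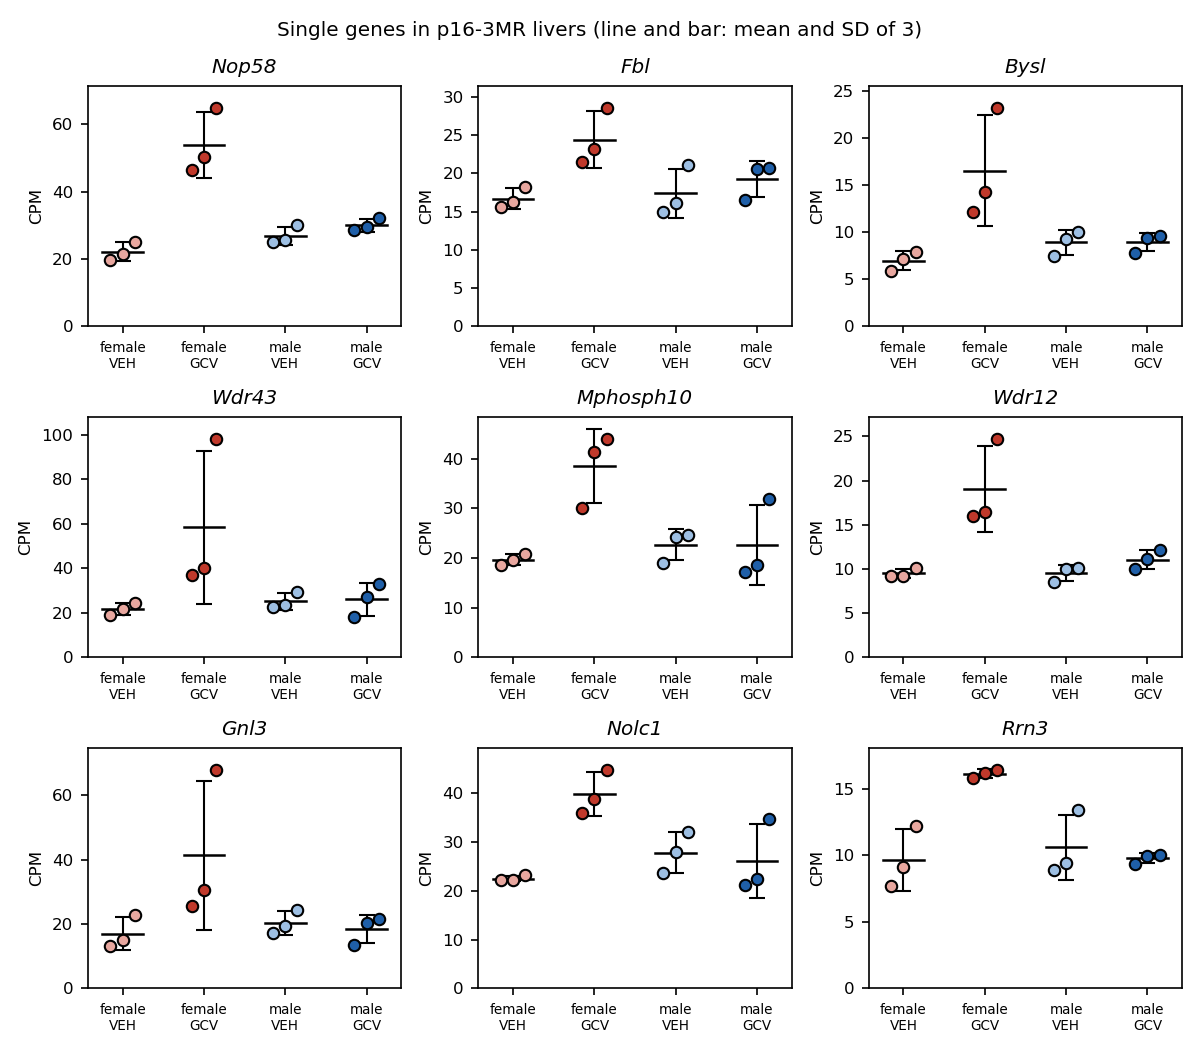
CPM in each p16-3MR liver for 9 genes whose GCV-treated females lay above all VEH-treated females; groups are on the horizontal axis, each point is a liver, and the line and bar are the mean and SD of 3. Nop58, Fbl, Bysl, Wdr43, Wdr12, Gnl3, Nolc1 and Rrn3 are higher in all 3 GCV-treated females than in the other 9 livers, and Mphosph10 is matched by 1 GCV-treated male.

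The sizes in females run without a break from near 0 to above 1, and no threshold was used to choose genes. The share of all counts that came from mitochondrially encoded genes overlapped between GCV-treated (15.8, 64.0 and 22.4%) and VEH-treated females (13.3 to 21.7%). Fitted without the mitochondrially encoded genes, the median log2 fold change of the 44 genes was 0.57. Of 10 marker lists for liver cell types, the summed CPM of the 8 stellate cell and fibroblast markers did not overlap, at 257 to 335 after GCV and 342 to 406 after VEH, and the other 9 did. Without liver 33 the sinusoidal endothelium markers (131 to 135 CPM after GCV and 163 to 275 after VEH) and the T and NK cell markers (4.0 to 6.2 and 6.7 to 41) did not overlap either. The 9 lists that overlapped with all livers include the 11 hepatocyte markers used (113022 to 160818 CPM after GCV and 96545 to 127706 CPM after VEH), the 10 Kupffer cell markers (162 to 481 and 444 to 1277 CPM) and the 10 cycling cell markers (43.6 to 159 and 49.997 to 173 CPM). Each marker used had counts in at least 1 female liver. In each GCV-treated female 7 of the 8 B lineage markers had counts, and whether the same marker was missing each time was not tested. The part of these cell types in the gene values was not tested.

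In p16-3MR males the same genes gave no call. GCV-treated males had a higher fitted level in 26 of the 44 (52.8% of all genes) and a lower one in 18. The median log2 fold change was 0.04, with a range from -0.28 to 0.35, and the median over all genes was also 0.04. By edgeR's quasi-likelihood test 0 of 44 passed an adjusted p of 0.05, as did 0% of all 21755 genes. None of the 44 had an unadjusted p under 0.05, against 1.1% of all genes higher and 0.814% lower, and DESeq2 called none. The median SE of a gene was 0.36, so the interval around a typical male value still includes log2 fold changes of the size of the female median, and a lack of calls does not show that GCV left these genes as they were.

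Only 2 genes separated the male treatments, both higher after GCV, 2 of 44 beside 3.57% of all genes, and 0 of 44 lay lower beside 2.83%. Heatr1, a small subunit processome scaffold, was at 11.3, 13.3 and 12.1 CPM after GCV against 11, 11.1 and 10.5 CPM after VEH (log2 fold change 0.17, SE 0.36). Ncl was at 353, 397 and 344 CPM against 311, 305 and 282 CPM (0.28, SE 0.40). Both differences were small beside their SE. In these males the summed CPM of 6 cholangiocyte markers did not overlap (86.4 to 143 after GCV and 50.3 to 64.1 after VEH). The other 9 marker lists overlapped, but a liver of each treatment differed widely from the rest. Hepatocyte markers summed to 27663 CPM in GCV-treated male 32 and 45459 CPM in VEH-treated male 24, against 91520 to 99855 CPM in the other males. Kupffer cell markers summed to 5184 and 2818 CPM in those livers, against 229 to 1504 CPM. The part of these differences in the 2 genes and in the other male values was not tested.

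The class representatives had small fitted differences in males. The log2 fold change was 0.15 (SE 0.29) for Fbl, 0.33 (SE 0.35) for Dkc1, 0.35 (SE 0.36) for Npm1, 0.31 (SE 0.35) for Polr1a and -0.28 (SE 0.51) for Polr1b. The 7 role groups had medians between -0.07 for the large subunit factors and 0.22 for the box H/ACA core. In females they ran from 0.29 to 1.28, and from 0.21 to 0.80 without liver 33, so the lowest female and the highest male group medians were close without that liver.

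**Figure D4:**
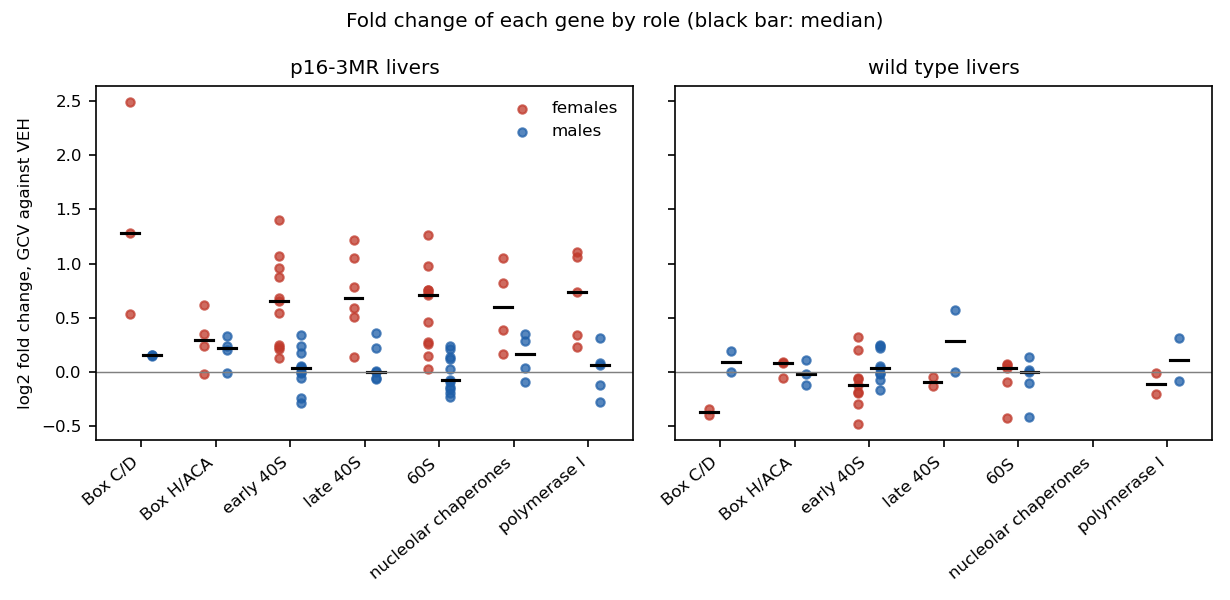
Each point is a gene, the vertical axis is the log2 fold change of GCV against VEH, the horizontal axis the 7 role groups, and the black bar the group's median; red is females and blue is males, with p16-3MR livers on the left and wild type livers on the right. In p16-3MR livers the female medians run from 0.29 to 1.28 and the male medians from -0.07 to 0.22; no chaperone gene had a usable wild type label.

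How far the GCV response differed by sex was computed in the same fit, as the female minus the male log2 fold change. It contains the female contrast and is given as a description. It was above 0 in 40 of the 44 genes, against 48.4% of all genes, with a median of 0.54 and 0.41 without liver 33. It was 1.12 for Nop58, 1.21 for Bysl, 0.86 for Rrn3, 2.34 for Nop56 and -0.35 for Dkc1, and without liver 33 it was 0.92, 0.86, 0.80, 0.66 and -0.58 in that order. Over all genes edgeR called 0%, and 1.91% were above 0 and 1.87% below at an unadjusted p under 0.05.

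The sexes were also compared over both treatments. With VEH livers alone, the median log2 difference of females against males was -0.17, and 6 of the 44 were fitted higher in females. Over all 12 livers the median was 0.11, with 33 fitted higher in females (44.2% of all genes). There edgeR called 0 of 44 (0.303% of all genes). At an unadjusted p under 0.05 there were 0 (2.61% of all genes higher, 4.44% lower). That count was 3 without GCV-treated female 31 and 1 without GCV-treated female 35 or VEH-treated male 26. Sexes without overlap were seen in 0 of the 44 (0.317 and 0.299% of all genes). These values share the female livers already described and are no separate evidence on them. In Bysl, for example, the means were 6.97 ± 1.00 CPM in VEH-treated females, 8.90 ± 1.30 in VEH-treated males, 8.93 ± 0.98 in GCV-treated males and 16.5 ± 5.85 in GCV-treated females (SD, n = 3), and the livers of the 3 lower groups overlapped.

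A list of 118 further genes of the pathway, none of them among the 44, was measured in p16-3MR livers. In females 89 were fitted higher after GCV and 29 lower, and their median was 0.40 on the log2 scale. Without liver 33 these were 88, 30 and 0.21, beside a median of -0.04 over all genes. All 3 GCV-treated livers lay above all VEH-treated livers in 27 of the 118 (5.91% of all genes) and below in 3 (7.35% of all genes). Without liver 33, 43 of the 118 lay above (12.9% of all genes) and 6 below (11.2%). In males 68 were fitted higher and 50 lower, with a median of 0.06, and 0 had an unadjusted p under 0.05. In males 6 of the 118 lay above without overlap (3.57% of all genes) and 5 below (2.83%). This list too was made with results of these livers known.

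The 16 further polymerase I genes had a median of 0.76 in females and 0.33 without liver 33. Taf1d, a subunit of the promoter selectivity factor, was at 23.1, 161 and 22.6 CPM in livers 31, 33 and 35 and at 8.71 to 15.2 CPM after VEH, and Polr2h, a subunit shared by all nuclear polymerases, at 4.63 to 7.33 CPM against 1.88 to 3.15 CPM. Taf1a (5.03 to 15.4 CPM against 2.60 to 4.96 CPM) also did not overlap. Without liver 33 the log2 fold changes were 0.88 for Taf1d, 1.24 for Polr2h and 0.34 for Taf1a. Ubtf, the architectural factor of active ribosomal DNA, was at 51.4 CPM on average after GCV and 53.5 CPM after VEH (log2 fold change -0.06), and Polr1d at 22.9 and 24.7 CPM (-0.07). Without liver 33 Ubtf was at -0.12 and Polr1d, which had 6.95 CPM in that liver, at 0.26. In males 3 of these 16 genes lay above without overlap (Taf1b, Polr2h and Taf1d, with log2 fold changes of 0.62, 0.40 and 0.40 and SEs of 0.43, 0.44 and 0.60). The other 8 of the 11 non-overlapping genes in males were Utp11, Dimt1 and Mycn, which were higher, and Dhx37, Noc4l, Rsl24d1, Mycl and Mxd4, which were lower.

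Among 42 further small subunit factors the median in females was 0.29 (0.24 without liver 33), and among 50 further large subunit factors it was 0.45 (0.21 without it). Nop9 (9.45 to 31.7 CPM after GCV, 5.92 to 7.38 after VEH), Utp23 (4.70 to 10.8 and 2.60 to 4.28) and the helicase Ddx49 (13.1 to 19.9 and 7.09 to 8.98) led the small subunit genes that did not overlap. Gnl2 (46.8 to 579 CPM and 32.3 to 38.1), Ppan (12.1 to 85.0 and 5.16 to 8.45) and Mdn1 (19.1 to 56.4 and 10.5 to 15.8) led the large subunit genes. The highest value was that of liver 33 for Nop9, Utp23, Gnl2, Ppan and Mdn1 and that of liver 31 for Ddx49, and without liver 33 the log2 fold changes were 0.60, 0.76, 0.78, 1.21, 0.69 and 1.02 in that order. Of 10 genes for MYC, its partners and repressors of polymerases I and III, 7 were fitted higher and 3 lower in females with a median of 0.25, and none separated the treatments with all livers. Without liver 33, 4 were higher (Myc, Mycn, Mycl and Max) and 6 lower (Mnt, Mxd1, Mxd4, Mxi1, Mga and Maf1). The median of -0.26 pools both sets, and Mycn stood at only 0 to 1.54 CPM in females. Of the lower genes 2 lay below all VEH-treated females: the repressor Mnt (2.51 and 3.52 CPM against 4.83 to 6.54) and Mga (24.3 and 25.7 CPM against 28.8 to 34.4). Myc itself, a known activator of ribosome biogenesis, averaged 16.4 CPM after GCV and 5.24 CPM after VEH, with a log2 fold change of 1.55 and an SE of 0.96. It had 37.8 CPM in liver 33 against 2.12 and 9.22 CPM in the other GCV-treated females, and its log2 fold change was 0.06 without that liver.

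In wild type livers, which carry no 3MR transgene, the 23 readable genes gave no call with GCV. In wild type females 7 were fitted higher after GCV (49.2% of all genes) and 16 lower, and the median log2 fold change was -0.07. There edgeR called 0 of 23 (0.00791% of all 12643 genes), with 0 at an unadjusted p under 0.05 (2.25% of all genes higher, 2.32% lower) and 0 by DESeq2. The unadjusted count was 2 without VEH-treated female 5 or 6. It was 1 without GCV-treated female 4 or 6, and 1 with the replicate number as a block. In wild type males 14 were fitted higher (50.2% of all genes) and 9 lower, the median was 0.00, and edgeR called 0 of 23 (0% of all genes), again with 0 at an unadjusted p under 0.05 (2.65% of all genes higher, 2.41% lower) and 0 by DESeq2. The unadjusted count in males was 1 without VEH-treated male 1. The median SE of a gene was 0.21 in females and 0.22 in males, smaller than in p16-3MR livers.

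Of the genes with separate treatments in p16-3MR females, several cannot be read here, among them Bysl, Gnl3, Nolc1, Mybbp1a, Rrn3 and Fbl. In wild type females Nop58 was at 33, 25.3 and 29.5 CPM after GCV and at 53.5, 32.7 and 24.9 CPM after VEH (log2 fold change -0.35, SE 0.22). Nop56 was at 21.5, 14.4 and 23 CPM against 36.3, 19.7 and 21.6 CPM (-0.40, SE 0.21). Wdr43 was at 24.9, 30.2 and 23.7 CPM against 32.5, 27.2 and 24.9 CPM (-0.12, SE 0.17), and Wdr12 at 19.0, 17.0 and 14.4 CPM against 19.9, 14.2 and 13.2 CPM (0.08, SE 0.21). All 4 overlapped, and VEH-treated female 4 was the highest female for each of them. Mphosph10 averaged 14.7 CPM after GCV and 12.7 CPM after VEH, also with overlap (0.20, SE 0.28).

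That liver set the direction of the wild type female median. Its median deviation was 0.22, above those of the other 11 wild type livers, which ran from -0.16 to 0.09, and 21 of its 23 genes were above their means. Without it the median log2 fold change of the 23 genes in wild type females was 0.06, and 15 were fitted higher after GCV in place of 7. The pooled SD between wild type livers of a group was 0.10 on the deviation scale.

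Few wild type genes separated the treatments. Nip7, a large subunit factor, was lower after GCV in females, at 6.33, 6.04 and 8.02 CPM against 9.63, 9.51 and 8.46 CPM (log2 fold change -0.42, SE 0.29), 1 of 23 genes beside 4.95% of all genes, and 0 of 23 were higher beside 5.05%. In males Polr1a was higher, at 11.9, 14.4 and 11.6 CPM against 10.6, 10.3 and 9.87 CPM (0.31, SE 0.23), 1 of 23 beside 4.48%. Imp3, a U3 particle protein, was lower in males, at 53.8, 54.6 and 55.2 CPM against 59.9, 65.4 and 58.2 CPM (-0.17, SE 0.12), 1 of 23 beside 4.37%. These shares are near those of all genes. In wild type males the summed CPM of 4 erythroid markers was also without overlap (1660 to 3766 after GCV and 1494 to 1622 after VEH), and its part in these values was not tested.

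Dkc1 in wild type females had a log2 fold change of 0.08 (SE 0.17) and Polr1a one of -0.01 (SE 0.23). The female minus male difference in the wild type response had a median of -0.12, with 6 genes above 0 (49.1% of all genes) and 17 below. Without VEH-treated female 4 the median was 0.025 and 12 of the 23 lay above 0. For this difference edgeR called 0 of 23 (0.00791% of all genes), with 0 at an unadjusted p under 0.05 (1.95% of all genes above 0, 2.5% below) and 0 by DESeq2. The unadjusted count was 1 without VEH-treated female 6 or VEH-treated male 1, and 1 with the replicate number as a block. Of the 82 further pathway genes readable in wild type livers, 32 were fitted higher and 50 lower in females and 40 higher and 42 lower in males after GCV, beside 49.2 and 50.2% of all genes fitted higher, and edgeR called none in either sex. At an unadjusted p under 0.05 there were 1 higher and 2 lower in females (2.25 and 2.32% of all genes) and 3 higher and 3 lower in males (2.65 and 2.41%).

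Sex itself was compared in wild type livers over all 12 animals, with both treatments weighted equally. It was the comparison with the most calls over all genes, 7.94%, and edgeR called 0 of the 23 genes. Nop10, the box H/ACA protein, came closest, with 112, 124 and 118 CPM in GCV-treated and 141, 105 and 120 CPM in VEH-treated females against 127, 152 and 161 CPM and 128, 144 and 175 CPM in the males (log2 difference of females against males -0.30, SE 0.09, adjusted p = 0.0524 by edgeR's quasi-likelihood test). It was called under DESeq2, with DESeq2's size factors, with edgeR's own expression filter and in 3 of 12 fits that left out a liver, and not in the others (adjusted p from 0.0137 to 0.307 over the alternatives). At an unadjusted p under 0.05 there were 5 genes, 1 higher in females (10.4% of all genes) and 4 lower (9.7% of all genes). This count rested on single livers: it ran from 1 to 6 with each left out, and was 1 without GCV-treated female 6 or VEH-treated male 2, 2 without GCV-treated female 4, VEH-treated female 5 or GCV-treated male 3, and 3 without VEH-treated female 6, GCV-treated male 1, or all GCV-treated livers.

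Those 5, named after their values were seen, were Nop10, Nhp2 (-0.29, SE 0.14), Ftsj3 (-0.25, SE 0.12) and Nop16 (-0.25, SE 0.11), which were lower in females, and Utp15 (0.62, SE 0.28), which was higher. Over the 23 genes 8 were fitted higher (53.5% of all genes) and 15 lower in females, with a median log2 difference of -0.08 beside 0.03 over all genes, and 0 separated the sexes (2.31% of all genes higher, 2.46% lower). Of the 82 further genes edgeR called 2, a smaller share than the 7.94% of all genes: Ttf1, the polymerase I termination factor, was higher in females (16.2 to 24.2 CPM against 10.6 to 14.4 CPM; log2 difference 0.63, SE 0.15, adjusted p = 0.00971), and the helicase Ddx21 was lower (29.7 to 42.9 CPM against 41.8 to 56.9 CPM; -0.40, SE 0.11, adjusted p = 0.0200). The Ttf1 groups did not overlap and the Ddx21 groups met at their edges.

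**Figure D5:**
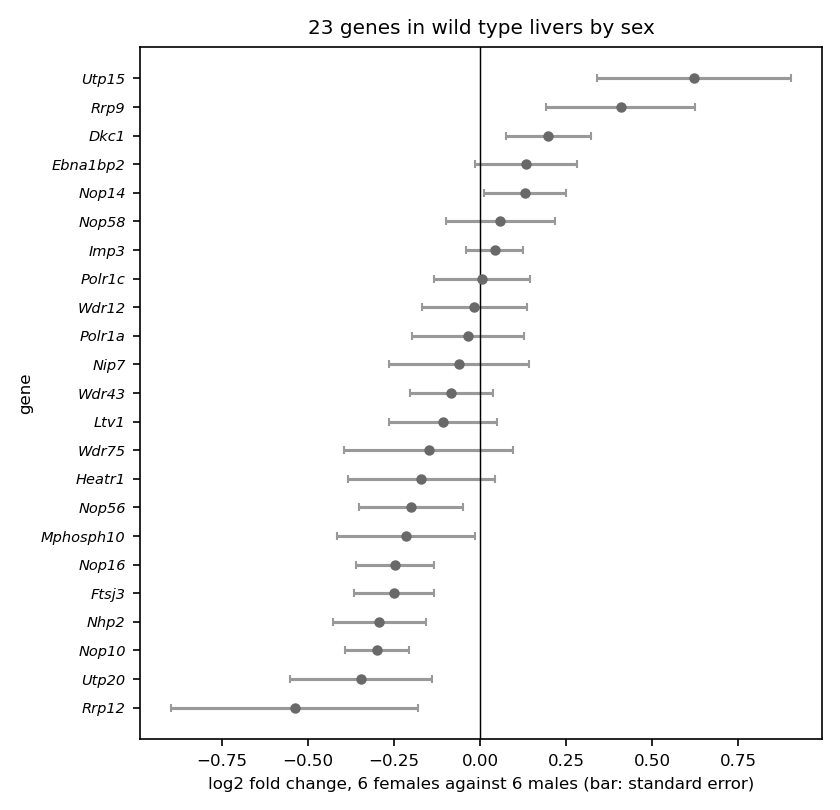
Each point is one of the 23 genes readable in wild type livers, the horizontal axis is the log2 difference of 6 females against 6 males with its standard error as the bar, and the vertical axis lists the genes by that value. Most points lie near 0, from -0.54 for Rrp12 to 0.62 for Utp15, and 15 of the 23 lie below 0.

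Some of the 44 genes share sequence with others in the annotation (GENCODE M21), and how the counting used strand is not given in the sources used here. Exons of 4 genes, Nop56, Nop58, Gnl3 and Ncl, overlap small RNA genes on the same strand. Exons of 18 genes overlap a gene on the opposite strand, for example Nop56 with Idh3b, Bysl with Ccnd3, Wdr12 with Carf and Gnl3 with Pbrm1. Counts of these genes could include reads of the neighbour if strand was not used, which was not tested.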

How the data were processed

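Liver RNA of 24 mice was sequenced by the authors as Smart-3SEQ libraries, which read the 3′ ends of polyadenylated transcripts; use of molecular identifiers is not given in the sources used here. The submitters' processing notes name FastQC 0.11.9, Trim Galore 0.6.10, Salmon 1.10.3 and the build mm10, and the study's methods state that transcript estimates were summed to genes and that genes with fewer than 3 reads were left out. The deposited values are estimated counts per gene, as whole numbers, not scaled for library size, in one table per genotype; they were used as deposited. Counts taken from 3′ ends depend on which transcript ends were read, and levels of different genes were not compared.

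Genes were matched by symbol. Of the 21755 p16-3MR identifiers 21698 had a symbol and 57 had none. The wild type gene labels lack 9 lower-case letters, so that of 12643 labels 10496 match 1 symbol, 2067 match several and 80 match none; the 21 members whose label matches several symbols were not used there (Fbl, Gar1, Imp4, Emg1, Bysl, Nob1, Pno1, Tsr1, Pes1, Bop1, Nop2, Rrp1, Rrs1, Gnl3, Ncl, Npm1, Nolc1, Mybbp1a, Polr1b, Polr1e and Rrn3).

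Each genotype was fitted apart over its 12 livers with edgeR 4.0.16 in R 4.3.3 (quasi-likelihood test, TMM scaling, 1 mean per sex and treatment, p adjusted by Benjamini-Hochberg across every gene tested, called at an adjusted p under 0.05). Levels are CPM, and log2 CPM used a prior count of 2. Alternatives were DESeq2 1.42.0, its size factors in edgeR, edgeR's expression filter, leaving out mitochondrially encoded genes, fitting the 6 livers of a sex alone, VEH livers alone for sex, a prior count of 0.5, each liver left out in turn and, in wild type livers, a replicate block; fits without the livers that stand apart, and the values of the further genes without liver 33, were added after seeing the data. Tables were made with Python 3.11.15, and the test was tested on simulated data. The p-values and SEs measure the spread between these livers, while the floor of a count of 0, taken as 3 counts, covers counting error only.

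The members and lists were chosen with earlier results of these data known. Named in each comparison were every called member, the class representatives Bysl, Polr1a, Polr1b, Rrn3, Fbl, Dkc1, Npm1 and Ncl where measured, up to 12 further members with a mean of at least 10 counts whose groups do not overlap, by size of change, and up to 3 genes of each further list; other members are given to account for the whole list, and Ubtf, Polr1d and Myc were named for their roles after their values were seen.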

Additional observations from a re-analysis of the deposited data

How the results depend on the processing

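Of the counts of called genes, medians and per-liver medians, 269 values under an alternative stayed within the limits set for a change and 19 moved. In p16-3MR females DESeq2 called 1 of the 44 genes with all livers and 1 without liver 33, in both cases Nop58, and every edgeR alternative called 0; the genes were listed with this contrast known, so these calls are descriptions. The median log2 fold change in those females was 0.46 without the 3 livers that stand apart (33, 32 and 24), 0.49 by DESeq2 without liver 33 and 0.43 to 0.67 with each liver left out in turn, the lowest without liver 33. The female minus male median was 0.44, 0.45 and 0.41 to 0.66 in the same fits. For females against males it was -0.17 with VEH livers alone. The per-liver median of liver 33 was 0.70 with DESeq2 size factors. In wild type females the median ran from -0.14 to 0.0585 and for the wild type sex difference in response from -0.21 to 0.0250 with each liver left out, highest in both without VEH-treated female 4. For wild type females against males 1 gene was called under DESeq2, 1 with DESeq2 size factors and 1 with the expression filter (Nop10 each time). Over all genes the same fits called 1031, 1020 and 1032, the last among the 9056 genes that the filter kept. With each liver left out, 0 to 2 of the 23 were called, beside 788 to 1257 over all genes. The 2 were Nop10 and Ftsj3, without VEH-treated female 4, when 1001 were called over all genes. Nop10 was also called without GCV-treated male 1 or VEH-treated male 1. The cause of these shifts was not tested.

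Single genes whose small difference changed sign were as follows. In p16-3MR females Dkc1 was at 0.000517 by DESeq2, 0.017 with its size factors and -0.26 to 0.31 with each liver left out. In p16-3MR males Bysl was at -0.0144 without the 3 livers, -0.0273 without males 32 and 24 and -0.0926 to 0.0978 with each liver left out, and in the last kind of fit Polr1a ran from -0.11 to 0.53, Polr1b from -0.55 to 0.0603 and Rrn3 from -0.22 to 0.0894. For the sex difference in response Polr1a was at -0.0398 without mitochondrially encoded genes, -0.0643 by DESeq2 without liver 33 and -0.25 to 0.39 with each liver left out, and Ncl was at -0.11 without the 3 livers, -0.12 by DESeq2 without liver 33 and -0.16 to 0.36. For p16-3MR females against males Bysl, Polr1b, Rrn3 and Fbl were at -0.35, -0.41, -0.13 and -0.0578 with VEH livers alone, Bysl, Polr1b and Fbl at -0.00172, -0.0728 and -0.00613 without the 3 livers, and with each liver left out Polr1a ran from -0.0536 to 0.19, Polr1b from -0.0786 to 0.45 and Dkc1 from -0.0118 to 0.26. In wild type females Polr1a ran from -0.16 to 0.20 and Dkc1 from -0.0648 to 0.17, and for wild type females against males Polr1a was at 0.13 with VEH livers alone and -0.14 to 0.0236 with each left out.

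Over all genes, DESeq2 called 86 against 0 in p16-3MR females, 5 against 0 in p16-3MR males, 3 against 0 for their difference, 200 against 66 for p16-3MR sex and 17 against 1 in wild type females. With the replicate number as a block, 0 of 23 wild type genes were called in females, males or their difference, with medians of -0.07, 0.03 and -0.11, while calls over all genes were 106, 68 and 79. Correlations of same-numbered wild type livers ran from -0.06 to 0.0018 in females and from -0.07 to 0.28 in males. Those of differently numbered livers ran from -0.05 to 0.08 in females and from -0.35 to 0.17 in males. In males the mean was 0.14 for same and -0.07 for different numbers, so these values do not settle whether the males were paired. The main fit did not pair the animals, and the block is given as an alternative. No paired analysis was possible because of unshared numbers in p16-3MR livers. Depth limits the rare genes most in liver 33, where several members rest on a few counts.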
